A study of Mus musculus with 2 samples.

Results

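Interferon-induced genes form one transcriptional program that nearly every cell type can switch on, and 32 of them were followed here across the cells of a healing mouse skull defect. The 32 symbols were looked up in the deposited gene tables, in which 31 were found among 27998 genes, and Mx2 was not found. Each gene was given as CPM, its unique molecular identifiers (UMIs) per 1000000 UMIs of a cell type in a library, in cells named from marker genes. By role, 4 genes belonged to the IFIT family, which bind viral RNA or block translation (Ifit1, Ifit2, Ifit3, Ifit3b). The ubiquitin-like modifier Isg15 and the protease that removes it, Usp18, made up the ISG15 system. The transcription factors were Irf1, Irf7, Irf9 and Stat2, the oligoadenylate synthetase group Oas1a, Oasl1 and Oasl2, and the enzymes acting on RNA or nucleotides Rsad2, Cmpk2 and Isg20. The GTPases were Gbp2, Gbp3, Gbp7, Igtp, Irgm1, Ifi47, Iigp1 and Mx1, the nucleic acid sensors Ifih1 and Zbp1, and the membrane-associated or other proteins Ifitm3, Bst2, Ifi27l2a, Rtp4 and Ifi44.

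Type I interferons signal through the receptor pair Ifnar1 and Ifnar2 and the Janus kinases to a complex that holds Stat2 and Irf9 and binds the interferon-stimulated response element (ISRE) near its target genes. Type II interferon, made mainly by T cells and natural killer (NK) cells, signals through Ifngr1 and Ifngr2 and acts on its targets at the gamma-activated site (GAS). Many targets, the immunity-related GTPases and guanylate-binding proteins among them, answer to both. In bone, interferons are known to restrain osteoclast formation, and a fraction of mouse neutrophils is known to carry part of the program without infection.

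The mice were wild-type C57BL/6, each parietal defect measured 2 mm, and the tissue in it was taken 14 days after a hydrogel had been implanted. One library held cells from defects filled with the hydrogel the labels call CGG-Cit, and 1 library held cells from defects filled with the hydrogel called CGG. The labels do not spell these names out, and they give neither the age and sex of the mice nor whether animals were pooled. The tissue had been digested with collagenase before single-cell capture at the 3′ end of transcripts. With 1 library for each hydrogel there was no replicate, so no difference below has a test, and hydrogel, animals and library cannot be told apart. Levels are given with exact Poisson and ratios (CGG-Cit over CGG) with exact conditional binomial intervals, both at 95%, and these cover counting error only.

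The promoters of 5 members that differed most clearly between the libraries in neutrophils, or that led the program elsewhere, chosen after their values were seen, are shown first, as the 200 bases before each gene's start (RefSeq, GRCm38.p6, 5′ to 3′ on the gene's strand). Capitals mark every ISRE match, searched as GAAA, any 2 bases and GAAA again, or on the other strand TTTC, any 2 bases and TTTC. Isg15 lies at chr4:156200819-156201018 on the minus strand, with 3 overlapping matches that begin 78 bases before the start. Rsad2, which encodes the antiviral radical-SAM enzyme viperin, lies at chr12:26456453-26456652 on the minus strand, with 1 match that begins 120 bases before the start. Ifit1 lies at chr19:34640689-34640888 on the plus strand, with matches that begin 85 and 104 bases before the start. Ifit3 (chr19:34583329-34583528) and its near copy Ifit3b (chr19:34607757-34607956), both on the plus strand, hold 2 matches each and share a run of 119 identical bases.
Isg15: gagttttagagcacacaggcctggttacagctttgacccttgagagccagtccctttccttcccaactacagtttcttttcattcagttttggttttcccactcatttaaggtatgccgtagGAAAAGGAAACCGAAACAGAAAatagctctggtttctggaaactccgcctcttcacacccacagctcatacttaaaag
Rsad2: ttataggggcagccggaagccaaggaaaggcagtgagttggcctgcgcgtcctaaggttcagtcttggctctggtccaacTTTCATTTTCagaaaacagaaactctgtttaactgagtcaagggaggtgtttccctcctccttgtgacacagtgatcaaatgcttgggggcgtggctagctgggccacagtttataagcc
Ifit1: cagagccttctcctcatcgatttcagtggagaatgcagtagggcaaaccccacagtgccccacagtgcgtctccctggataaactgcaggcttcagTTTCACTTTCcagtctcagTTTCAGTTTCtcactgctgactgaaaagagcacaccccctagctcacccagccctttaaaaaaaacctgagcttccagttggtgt
Ifit3: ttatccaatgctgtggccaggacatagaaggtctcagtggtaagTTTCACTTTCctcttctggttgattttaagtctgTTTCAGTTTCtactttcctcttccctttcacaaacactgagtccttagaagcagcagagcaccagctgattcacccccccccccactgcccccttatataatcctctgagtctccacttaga
Ifit3b: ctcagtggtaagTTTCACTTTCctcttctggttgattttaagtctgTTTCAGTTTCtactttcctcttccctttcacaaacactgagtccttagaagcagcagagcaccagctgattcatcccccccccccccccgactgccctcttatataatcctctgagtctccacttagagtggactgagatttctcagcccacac
Of the 32 members, 25 matched a RefSeq promoter by symbol, and the 7 others are Mx1, Mx2, Ifi27l2a, Rtp4, Iigp1, Zbp1 and Usp18. In the windows of 250 bases before to 50 after the start, the ISRE letters stood in 15 of the 31 windows of these members (48.4%), against 1131 of 32851 windows of all promoters (3.44%). The GAS letters, searched as TTC, any 3 bases and GAA, which read the same on both strands, stood in 25.8% of the members' windows and in 8.3% of all windows. Matches of either motif were counted wherever they lay, overlaps included. A match describes letters, not binding. Ifit1, Ifit2, Ifit3 and Ifit3b lie side by side on chromosome 19 between bases 34550694 and 34650009 (GRCm38), and Rsad2 and Cmpk2 are neighbours on opposite strands of chromosome 12, at 26442746 to 26456452 and at 26469204 to 26479837. Reads of Ifit3 and Ifit3b, and those of paralogs among the GTPases and oligoadenylate synthetases, could be split between copies in counting, so their separate values are uncertain.

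The CGG-Cit library held 10806 cell barcodes and 106173570 UMIs, and the CGG library 12527 barcodes and 92517884 UMIs, with 34 barcode sequences in common. After filters on genes, mitochondrial share and doublets, 9994 cells of CGG-Cit and 11048 of CGG were kept, of which 9178 in CGG-Cit and 7138 in CGG took a cell type. Type names come from marker genes alone, so that "neutrophils", for example, stands for neutrophil-like cells. Stromal cells numbered 28 in CGG-Cit and 1629 in CGG, macrophages 17 in CGG-Cit and 909 in CGG, and endothelial cells 46 in CGG-Cit and 407 in CGG. Types with at least 100 cells in both libraries, 7 in all, were compared first, and the others are given with their cell numbers. RNA of stromal cells was also found in other cells of the CGG library, where Col1a1, Col1a2, Col3a1 and Dcn together reached 8.88 to 21.4 CPM in the 7 types of CGG-Cit and 446 to 1242 CPM in those of CGG. Were all of that RNA free stromal RNA, it would bring along 0.988 to 2.38 CPM of 28 members in CGG-Cit and 33.9 to 94.5 CPM in CGG. Its part in the results was not tested.

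Every member was detected in several cell types of both libraries, and the levels spread over more than an order of magnitude between types. Because Ifitm3, Ifi27l2a and Bst2 are also abundant in cells at rest and make up a large part of the plain sum in several types, the sum of the other 28 genes is given for each type. In CGG-Cit, among 11 types with at least 40 cells, endothelial cells stood highest with 7161 CPM (6937 to 7391), followed by T cells with 4084 and conventional dendritic cells with 3863 CPM, whose intervals met. Monocytes followed with 1780 CPM, then NK cells with 1439 and erythroid cells with 1416 CPM, whose intervals also met. Neutrophils had 981 CPM, B lineage cells 324 and myeloid progenitors 283 CPM, the lowest of the 11 types. In CGG, among 14 such types, stromal cells stood highest with 5194 CPM, followed by macrophages with 4429 and endothelial cells with 3662 CPM. The intervals of endothelial cells and migratory dendritic cells (3427 CPM) met, and those of B lineage cells (459 CPM) and neutrophils (455 CPM) met near the low end, above myeloid progenitors with 205 CPM. B lineage cells and myeloid progenitors thus stood near the low end in both libraries. The place of T cells (3028 CPM in CGG) cannot be compared between these orders, which hold different types. Mural cells (9262 CPM), stromal cells (7782 CPM) and macrophages (6521 CPM) of CGG-Cit stood above T cells but had under 40 cells. With smaller types included, T cells ranked 5 of 17 in CGG-Cit and 7 of 18 in CGG.

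**Figure D1:**
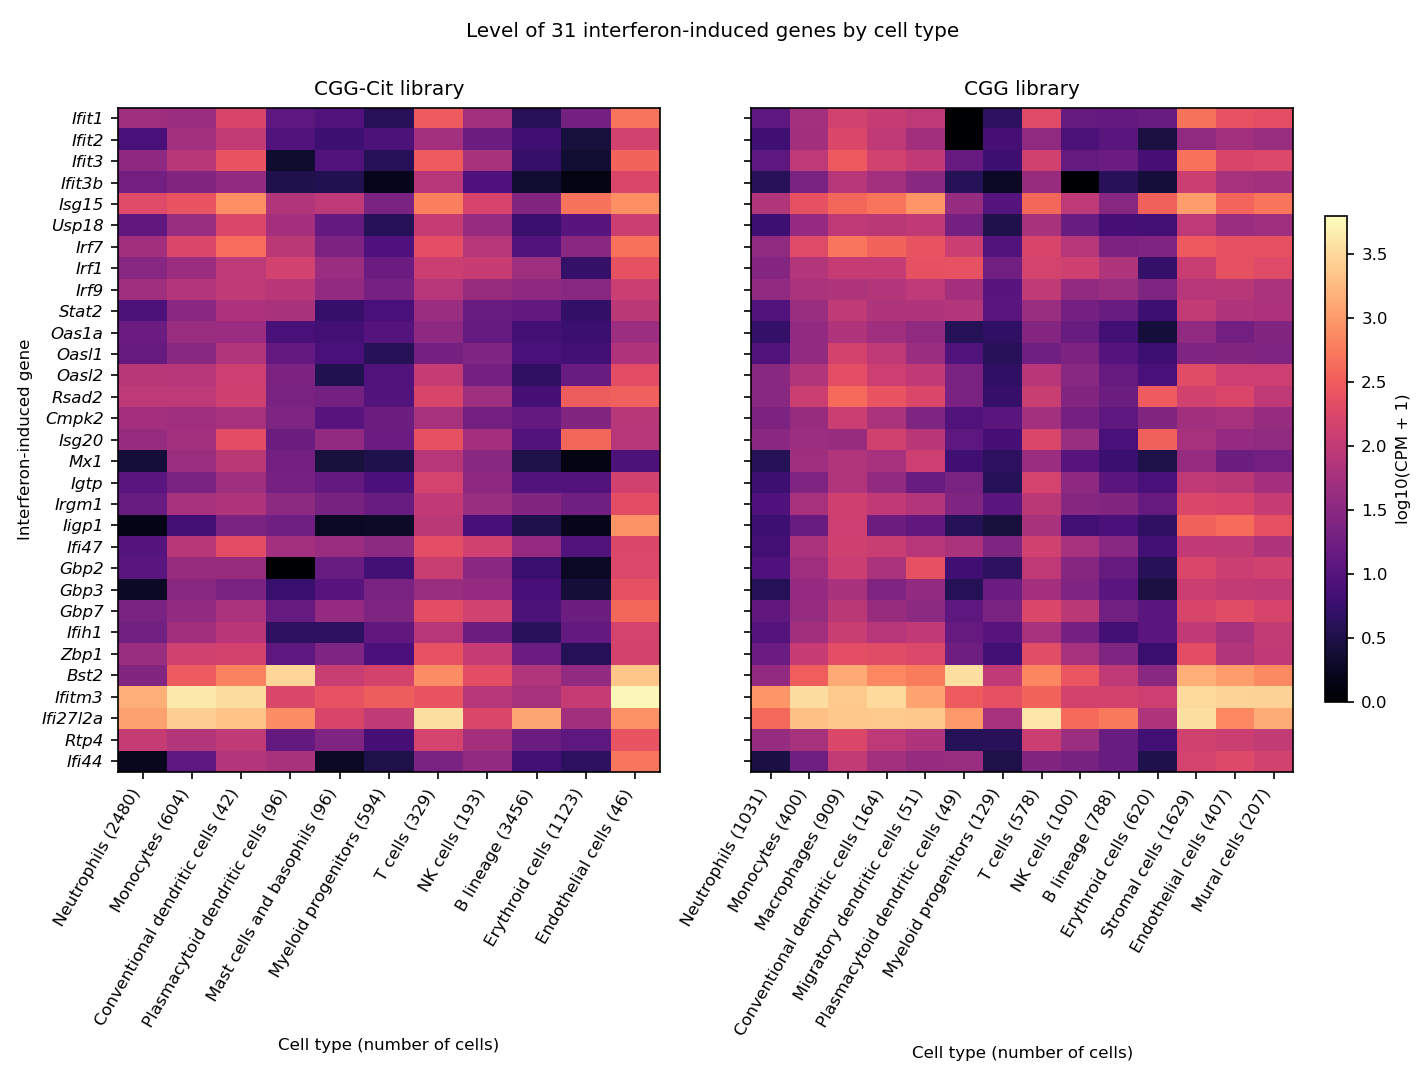
Levels of the 31 measured genes by cell type, as log10(CPM + 1), with the 11 types of CGG-Cit on the left and the 14 types of CGG on the right and each type's number of cells in its label. Lighter cells are higher levels. Endothelial cells are the brightest column of CGG-Cit (28-gene sum 7161 CPM), and B lineage cells (324 CPM in CGG-Cit and 459 CPM in CGG) are dark in both libraries apart from Ifi27l2a.

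**Figure D2:**
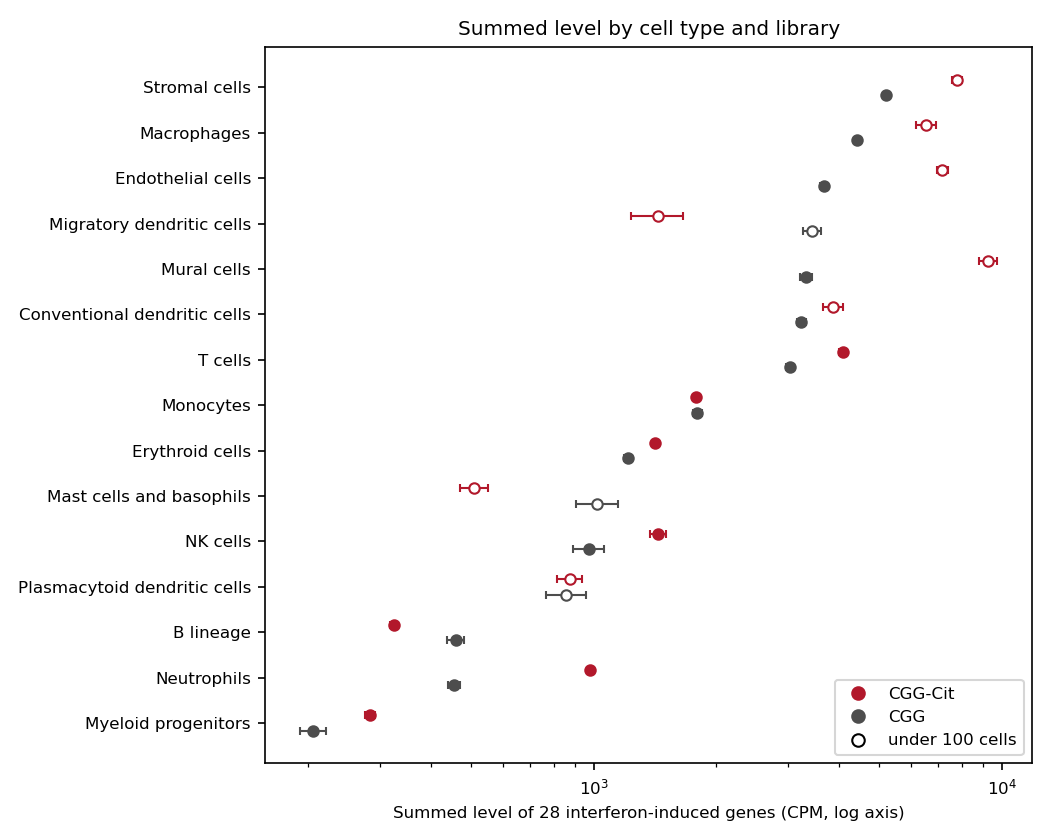
Summed CPM of 28 members (log axis) by cell type in CGG-Cit and CGG, with exact Poisson intervals and an open symbol where the type had under 100 cells in that library. Neutrophils stand at 981 CPM in CGG-Cit and 455 CPM in CGG, and B lineage cells at 324 CPM in CGG-Cit and 459 CPM in CGG.

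Individual genes had their own places within this order. Counts of 3′ tags do not grow with transcript length, but how fully each gene was captured and counted was not tested. Levels of different genes are therefore only roughly comparable. Among the 11 types of CGG-Cit with at least 40 cells, 21 of the 31 genes were highest in endothelial cells, 4 in conventional dendritic cells and 4 in T cells. In CGG, where stromal cells and macrophages were numerous, 10 genes were highest in macrophages, 7 in stromal cells, 4 in T cells and 3 in endothelial cells. Some members kept one place in both libraries. Isg20, a 3′ exonuclease, was highest in erythroid cells, and Bst2 (tetherin, which holds budding virus at the membrane and marks plasmacytoid dendritic cells in the mouse) in plasmacytoid dendritic cells. Ifi27l2a, Ifi47 and Igtp were highest in T cells, and Iigp1, Ifi44 and Gbp7 in endothelial cells.

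Neutrophils of CGG-Cit carried more of the program than those of CGG. Summed over the 28 genes, the level was 981 CPM in 2480 cells of CGG-Cit and 455 CPM in 1031 cells of CGG, a ratio of 2.16 (2.08 to 2.24). Of 31 members measured (at least 20 UMIs over both libraries), 25 were higher in CGG-Cit, where 44.0% of all 10147 genes measured in neutrophils were. At least 2-fold higher were 13 members, against 2.12% of all genes. At least 2-fold lower were 3 members, against 7.68% of all genes. The members' median log2 ratio was 0.84, and that of all genes was -0.06.

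The IFIT family stood furthest apart in neutrophils, with 106 CPM in CGG-Cit and 30.6 CPM in CGG, a ratio of 3.45. Ifit1 reached 48.0 CPM in CGG-Cit (882 UMIs) and 10.8 CPM in CGG (82 UMIs), a ratio of 4.44 (3.54 to 5.64). Ifit3b had 17.97 CPM in CGG-Cit and 3.04 CPM in CGG, a ratio of 5.92 (3.88 to 9.47). Ifit2, the fourth of the cluster, had 6.70 CPM in CGG-Cit and 5.55 CPM in CGG, and its interval (0.845 to 1.76) spanned 1. The family was therefore not uniform. Isg15, whose protein is attached to newly made proteins, had 194 CPM in CGG-Cit and 72.4 CPM in CGG, a ratio of 2.68 (2.45 to 2.93). Usp18, which removes ISG15 and dampens the receptor, had 11.6 CPM in CGG-Cit and 5.28 CPM in CGG.

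Enzymes and sensors of viral RNA followed the same direction. Rsad2 had 90.6 CPM in CGG-Cit and 29.6 CPM in CGG, a ratio of 3.06 (2.66 to 3.54), and its neighbour Cmpk2, a mitochondrial nucleotide kinase, 55.2 CPM in CGG-Cit and 22.7 CPM in CGG. The 3 oligoadenylate synthetase genes summed to 111 CPM in CGG-Cit and 42.5 CPM in CGG, a ratio of 2.62. Zbp1, a sensor of Z-form nucleic acid, had 42.5 CPM in CGG-Cit and 15.1 CPM in CGG. Rtp4, a chaperone of membrane receptors, had 110.0 CPM in CGG-Cit and 39.6 CPM in CGG. Rsad2, Cmpk2, Zbp1 and Rtp4 were each more than 2-fold higher in the CGG-Cit neutrophils. The most abundant members, both short hydrophobic proteins, were Ifitm3 with 1457 CPM in CGG-Cit and 918 CPM in CGG (ratio 1.59) and Ifi27l2a with 1113 CPM in CGG-Cit and 403 CPM in CGG (ratio 2.77).

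The transcription factors had the smallest ratio of the roles. Together they had 135 CPM in CGG-Cit and 106 CPM in CGG, a ratio of 1.28. Irf7, the factor that amplifies type I interferon, had 50.4 CPM in CGG-Cit and 34.9 CPM in CGG, whereas the intervals of Irf1 (0.925 to 1.29) and Stat2 (0.691 to 1.29) spanned 1. A few members were lower in CGG-Cit. Bst2 had 26.4 CPM in CGG-Cit and 35.8 CPM in CGG. Iigp1, an immunity-related GTPase, had 0.490 CPM in CGG-Cit (9 UMIs) and 5.28 CPM in CGG (40 UMIs). The stromal RNA found in CGG neutrophils would bring along 4.24 CPM of Iigp1 and the macrophage RNA 1.34 CPM, so the whole CGG level lay within what free RNA could carry. For Ifit1 that amount was 5.95 and 1.49 CPM of 10.8 CPM, and for Isg15 12.4 and 4.002 CPM of 72.4 CPM. Gbp3 had 0.872 CPM in CGG-Cit (16 UMIs) and 2.77 CPM in CGG (21 UMIs). Ifi44 had 0.654 CPM in CGG-Cit (12 UMIs) and 1.98 CPM in CGG (15 UMIs), so the members at least 2-fold lower all rested on few UMIs.

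**Figure D3:**
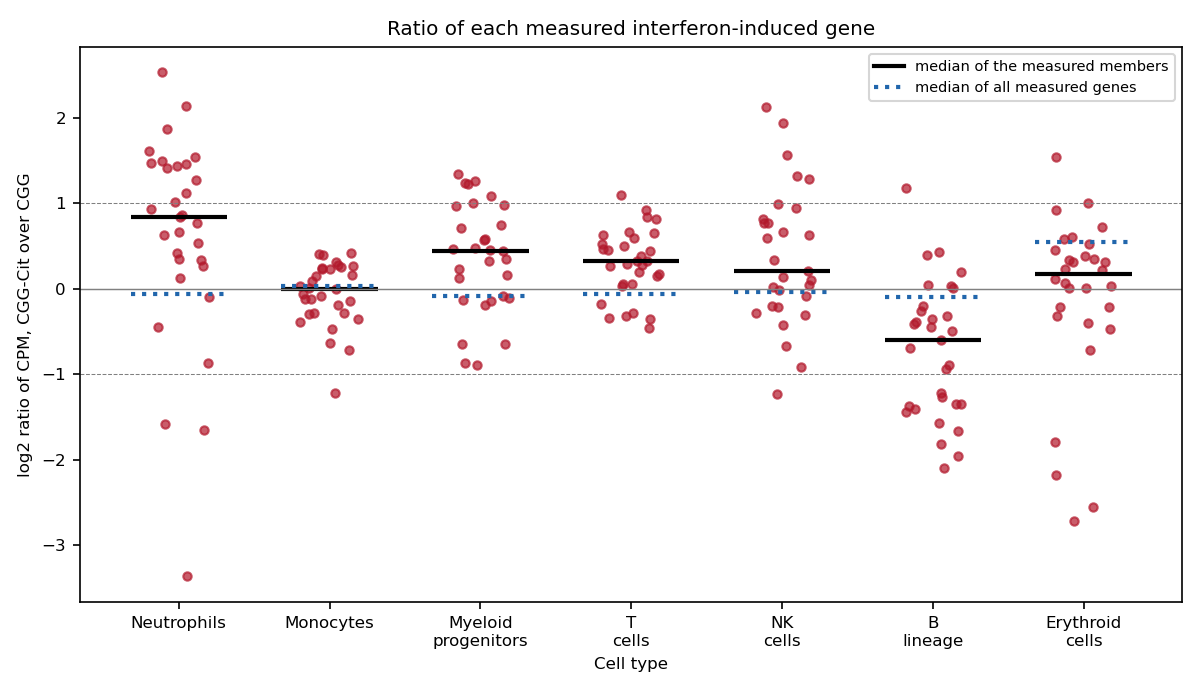
The log2 ratio (CGG-Cit over CGG) of each measured member in 7 cell types, with the members' median as a black bar, the median of all genes as a dotted blue bar and dashed lines at a 2-fold difference. In neutrophils the members' median lies at 0.84 and in B lineage cells at -0.60, against -0.06 for all genes in neutrophils.

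Neutrophils mature through stages marked by Fcnb (early granule genes), Ltf (lactoferrin, later granules) and Retnlg (mature cells). The cells were gated by the highest mean score over marker lists headed by these genes. In the Fcnb gate 2 of its 4 markers were at least 2-fold above all other cells, and Ltf, Lcn2, Camp and Ngp stood among its leading genes. The 28-gene sum in CPM was higher at each later gate in both libraries. All UMIs per cell fell along the gates, with medians of 17081, 8118 and 3816 in CGG-Cit and 16207, 7759 and 3561 in CGG. UMIs of the 28 genes numbered 1488, 6624 and 9896 in CGG-Cit and 507, 1084 and 1837 in CGG. Per cell they rose along the gates in CGG-Cit but not in CGG. In Fcnb-gated cells the 28-gene sum was 273 CPM in CGG-Cit (327 cells) and 215 CPM in CGG (138 cells), a ratio of 1.27 (1.15 to 1.41). In Ltf-gated cells it was 824 CPM in CGG-Cit (937 cells) and 339.8 CPM in CGG (376 cells), a ratio of 2.42 (2.27 to 2.59). In Retnlg-gated cells it was 2035 CPM in CGG-Cit (1215 cells) and 909.9 CPM in CGG (513 cells), a ratio of 2.24 (2.13 to 2.35). The ratio was thus smallest in the earliest cells, a difference between gates that was not tested. At least 2-fold higher in CGG-Cit were 4 of 26 members in the Fcnb gate (2.3% of all genes), 12 of 28 in the Ltf gate (3.18%) and 12 of 28 in the Retnlg gate (3.39%). At least 2-fold lower were 1 member in the Fcnb gate (5.4% of all genes), 0 in the Ltf gate (5.9%) and 2 in the Retnlg gate (8.61%).

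Single genes followed the gates. Isg15 had 30.99 CPM in CGG-Cit and 24.6 CPM in CGG in the Fcnb gate. In the Ltf gate it had 145 CPM in CGG-Cit and 37.3 CPM in CGG, and in the Retnlg gate 456 CPM in CGG-Cit and 179 CPM in CGG. Isg15 was therefore highest in mature cells of both libraries. Ifit1 had 44.5 CPM in CGG-Cit and 5.96 CPM in CGG in the Ltf gate, and 97.9 CPM in CGG-Cit and 24.3 CPM in CGG in the Retnlg gate. Rsad2 in the Retnlg gate had 204 CPM in CGG-Cit and 75.8 CPM in CGG. Ifi27l2a in the same gate had 2684 CPM in CGG-Cit and 929 CPM in CGG. Ifit3b stood furthest apart there, with 47.7 CPM in CGG-Cit and 5.94 CPM in CGG, a ratio of 8.03 (4.51 to 15.8). Bst2 in the Retnlg gate was lower in CGG-Cit, with 23.2 CPM against 55.0 CPM in CGG. In the Fcnb gate Oas1a had 8.80 CPM in CGG-Cit and 1.27 CPM in CGG, on counts so low that the interval ran from 2.23 to 34.7.

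**Figure D4:**
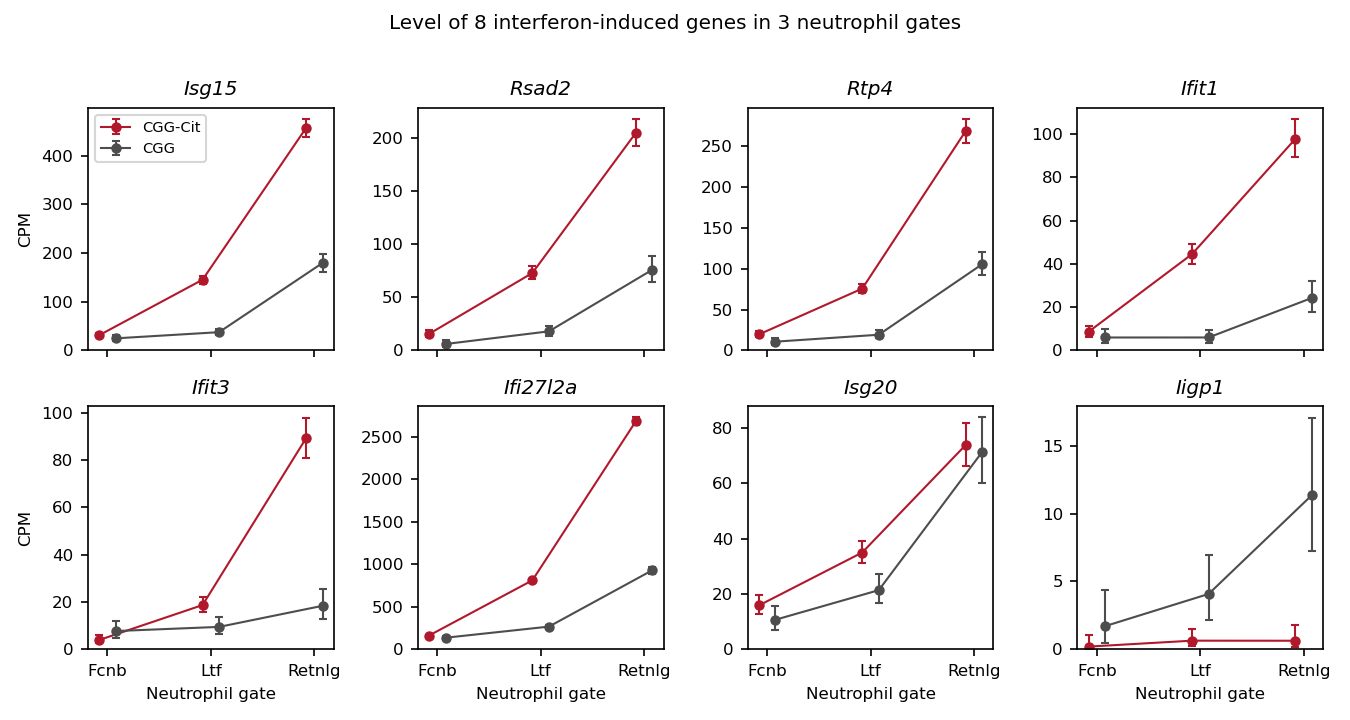
CPM of 8 members in the Fcnb, Ltf and Retnlg gates of neutrophils, with CGG-Cit left of CGG and exact Poisson intervals. Isg15 in the Retnlg gate stands at 456 CPM in CGG-Cit and 179 CPM in CGG, and in the Fcnb gate at 30.99 CPM in CGG-Cit and 24.6 CPM in CGG.

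In B lineage cells most members were lower in CGG-Cit, with Ifi27l2a as the clear exception. The 28-gene sum was 324 CPM in 3456 cells of CGG-Cit and 459 CPM in 788 cells of CGG, a ratio of 0.706 (0.669 to 0.745). Of 31 measured members, 24 were lower and 7 higher in CGG-Cit, where 41.7% of all genes were higher. At least 2-fold lower were 12 members (8.37% of all genes), and 1 was at least 2-fold higher (1.41% of all genes). The IFIT family had 13.9 CPM in CGG-Cit and 41.1 CPM in CGG, a ratio of 0.338 (0.276 to 0.416). Irf7 had 8.25 CPM in CGG-Cit and 22.3 CPM in CGG. Ifitm3, which blocks viral entry at the membrane, had 57.2 CPM in CGG-Cit and 146 CPM in CGG. Oasl2 had 3.50 CPM in CGG-Cit and 13.6 CPM in CGG, and Bst2 71.5 CPM in CGG-Cit and 94.7 CPM in CGG. Irf1 had 47.3 CPM in CGG-Cit and 66.7 CPM in CGG, and Irf9 33.8 CPM in CGG-Cit and 42.2 CPM in CGG. Ifi47 was higher in CGG-Cit with 38.8 CPM, against 28.6 CPM in CGG, and the intervals of Isg20 (8.72 CPM in CGG-Cit and 6.53 CPM in CGG) and Cmpk2 (12.6 CPM in CGG-Cit and 10.9 CPM in CGG) spanned 1. The differences were not shared by Isg15, with 25.2 CPM in CGG-Cit and 28.8 CPM in CGG (interval 0.706 to 1.09).

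Free RNA could carry much of the CGG level of several of these genes. The stromal RNA in CGG B lineage cells would bring along 90.3 CPM and the macrophage RNA 62.1 CPM of the 459 CPM. Ifit1 had 2.93 CPM in CGG-Cit and 12.5 CPM in CGG, of which 8.64 CPM could be carried from stromal cells and 2.04 CPM from macrophages. Ifit3 had 4.34 CPM in CGG-Cit and 15.2 CPM in CGG, of which 8.35 and 4.10 CPM could be carried. For Ifitm3 the carried amounts were 56.6 and 33.7 CPM of the 146 CPM in CGG. In CGG-Cit B lineage cells the carried amounts of Ifit1 were 0.188 and 0.0420 CPM. How much of the lower levels in CGG-Cit this makes up was not tested.

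Ifi27l2a, a member of the small ISG12 protein family, had 1257 CPM in CGG-Cit B lineage cells and 553 CPM in those of CGG, a ratio of 2.27 (2.17 to 2.38). It outweighed all other members, so that over all 31 genes the sum turned to 1710 CPM in CGG-Cit and 1254 CPM in CGG. Its higher level held at each stage gated by markers. In Mki67-gated dividing cells it had 963 CPM in CGG-Cit and 272 CPM in CGG, and in Rag1-gated precursors 1713 CPM in CGG-Cit and 806 CPM in CGG. In Ms4a1-gated mature cells it had 1610 CPM in CGG-Cit and 827 CPM in CGG. The 28-gene sum was lower in CGG-Cit in these gates, with 193 CPM in CGG-Cit and 263 CPM in CGG for the Mki67 gate, 404 CPM in CGG-Cit and 602 CPM in CGG for the Rag1 gate, and 555 CPM in CGG-Cit and 674 CPM in CGG for the Ms4a1 gate. In Dntt-gated early precursors the sum was 583 CPM in CGG-Cit and 621 CPM in CGG, with an interval (0.833 to 1.06) that spanned 1. A single CGG-Cit cell held 318 of the 1646 UMIs of CGG-Cit in that gate.

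T cells held the highest level among the 7 types compared first, and it was higher in CGG-Cit. The 28-gene sum was 4084 CPM in 329 cells of CGG-Cit and 3028 CPM in 578 cells of CGG, a ratio of 1.35 (1.31 to 1.39). Higher in CGG-Cit were 25 of 31 members, and 44.9% of all genes. Only Ifit3 reached 2-fold (2.2% of all genes did), and none was at least 2-fold lower (6.72% of all genes). Ifit3 had 301 CPM in CGG-Cit and 140.4 CPM in CGG, a ratio of 2.15 (1.88 to 2.45). Its copy Ifit3b had 79.2 CPM in CGG-Cit and 41.6 CPM in CGG, and Ifit1 311 CPM in CGG-Cit and 196 CPM in CGG, and with Ifit2 (ratio 1.51) all 4 IFIT genes were higher in CGG-Cit T cells. Isg15 had 608 CPM in CGG-Cit and 393 CPM in CGG, and Usp18 111 CPM in CGG-Cit and 61.5 CPM in CGG. Bst2 had 762 CPM in CGG-Cit and 686 CPM in CGG. The transcription factors were level, with 473 CPM in CGG-Cit and 462 CPM in CGG, of which Irf1, a factor induced by type II interferon, had 122 CPM in CGG-Cit and 155 CPM in CGG, and Irf9 79.8 CPM in CGG-Cit and 99.6 CPM in CGG. Ifitm3 was lower in CGG-Cit with 260.3 CPM, against 358 CPM in CGG, of which free stromal RNA could carry 59.2 CPM and macrophage RNA 34.7 CPM. Ifi27l2a, the most abundant member in T cells, had 3602 CPM in CGG-Cit and 4070 CPM in CGG.

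Subsets of T cells had different ratios. Cd4-gated cells had 5728 CPM over 28 genes in CGG-Cit (113 cells) and 3672 CPM in CGG (261 cells), a ratio of 1.56 (1.49 to 1.63). Cd8a-gated cells had 3351 CPM in CGG-Cit (129 cells) and 2913 CPM in CGG (139 cells), a ratio of 1.15 (1.09 to 1.22). Cells of the Cd163l1 gate, drawn by genes of gamma-delta T cells, had 3515 CPM in CGG-Cit (51 cells) and 2112 CPM in CGG (149 cells), a ratio of 1.67. The difference between these ratios was not tested. At least 2-fold higher in CGG-Cit were 3 of 31 members in the Cd4 gate (2.67% of all genes), 0 of 31 in the Cd8a gate (2.27%) and 7 of 26 in the Cd163l1 gate (3.64%). At least 2-fold lower were 0 members in the Cd4 gate (6.32% of all genes), 1 in the Cd8a gate (5.37%) and 1 in the Cd163l1 gate (6.86%). In the Cd4 gate Isg15 had 939 CPM in CGG-Cit and 494 CPM in CGG, and Iigp1 199.9 CPM in CGG-Cit and 90.1 CPM in CGG. In the Cd8a gate Isg15 had 466 CPM in CGG-Cit and 324 CPM in CGG, while Ifitm3 had 95.6 CPM in CGG-Cit and 188 CPM in CGG.

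NK cells gave a 28-gene sum of 1439 CPM in 193 cells of CGG-Cit and 973 CPM in 100 cells of CGG, a ratio of 1.48 (1.34 to 1.63). Of 29 measured members, 5 were at least 2-fold higher in CGG-Cit (5.84% of all genes), among them Ifi47, a GTPase induced by type II interferon, with 137 CPM in CGG-Cit and 55.7 CPM in CGG. Ifit3 had 60.4 CPM in CGG-Cit (77 UMIs) and 13 CPM in CGG (7 UMIs), a ratio of 4.65 (2.15 to 11.9). Ifit1 had 53.3 CPM in CGG-Cit (68 UMIs) and 13 CPM in CGG (7 UMIs), of which free stromal RNA could carry 8.50 CPM and macrophage RNA 1.88 CPM. Zbp1 had 112 CPM in CGG-Cit and 55.7 CPM in CGG, Isg15 160.0 CPM in CGG-Cit and 92.8 CPM in CGG, and Gbp7 143 CPM in CGG-Cit and 89.1 CPM in CGG. Members across several roles were thus higher. Ifi27l2a went the other way, with 177 CPM in CGG-Cit and 418 CPM in CGG, a ratio of 0.424 (0.351 to 0.513), and was the 1 member at least 2-fold lower (4.87% of all genes). Ifitm3 had 77.6 CPM in CGG-Cit and 147 CPM in CGG, and Bst2 216 CPM in CGG-Cit and 267 CPM in CGG, while the interval of Irf1 (114 CPM in CGG-Cit and 132 CPM in CGG) spanned 1. With these included, the sum over 31 genes was 1910 CPM in CGG-Cit and 1805 CPM in CGG. This comparison depended on which cells were counted, since with suspected doublets kept the 31-gene ratio was 0.904, and with cells that disagreed with their cluster kept it was 0.516.

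Monocytes of both libraries held similar levels. The 28-gene sum was 1780 CPM in 604 cells of CGG-Cit and 1796 CPM in 400 cells of CGG, a ratio of 0.991 (0.962 to 1.02). Of 31 members, 15 were higher in CGG-Cit, where 53.5% of all genes were. None was higher by 2-fold (2.88% of all genes), and 1 was at least 2-fold lower (5.52% of all genes). Isg15 had 260.2 CPM in CGG-Cit and 244 CPM in CGG, with an interval (0.986 to 1.16) that spanned 1. Rsad2 had 91.1 CPM in CGG-Cit and 119 CPM in CGG, and Irf1 44.8 CPM in CGG-Cit and 73.8 CPM in CGG. Stat2 had 31.1 CPM in CGG-Cit and 43.0 CPM in CGG, and Irf7 178 CPM in CGG-Cit and 197 CPM in CGG. Ifi47 had 83.4 CPM in CGG-Cit and 62.5 CPM in CGG, and Rtp4 74.3 CPM in CGG-Cit and 55.9 CPM in CGG, so members of both directions balanced in the sum. The level of Bst2 was 309 CPM in CGG-Cit and 322 CPM in CGG. The member at least 2-fold lower was Iigp1, with 5.94 CPM in CGG-Cit and 13.9 CPM in CGG. Of this CGG level, free stromal RNA could carry 3.84 CPM and macrophage RNA 3.375 CPM. Ifitm3 had 4245 CPM in CGG-Cit and 3508 CPM in CGG, and Ifi27l2a 2649 CPM in CGG-Cit and 2008 CPM in CGG, so that the 31-gene sum leaned to CGG-Cit (ratio 1.18). With whole clusters in place of gated cells the 31-gene ratio was 1.54, so this near-equality held for the gated cells. In those clusters 17 members were at least 2-fold higher, and the share of all genes was not computed.

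Myeloid progenitors had the lowest 28-gene sums among the types with at least 40 cells. The 28-gene sum was 283 CPM in 594 cells of CGG-Cit and 205 CPM in 129 cells of CGG, a ratio of 1.38 (1.28 to 1.49). At least 2-fold higher in CGG-Cit were 6 of 30 members (2.62% of all genes), and none was at least 2-fold lower (3.32% of all genes). Isg15 had 21.9 CPM in CGG-Cit and 9.14 CPM in CGG, a ratio of 2.39 (1.69 to 3.50). Irf9, the DNA-binding part of the complex that reads the ISRE, had 19.7 CPM in CGG-Cit and 9.68 CPM in CGG. Isg20 had 15.2 CPM in CGG-Cit and 6.18 CPM in CGG. The abundant members were higher as well, Ifitm3 with 313 CPM in CGG-Cit and 231 CPM in CGG, Bst2 with 147 CPM in CGG-Cit and 98.4 CPM in CGG, and Ifi27l2a with 97.2 CPM in CGG-Cit and 59.4 CPM in CGG. Ifi47 had 32.6 CPM in CGG-Cit and 23.7 CPM in CGG. Stat2 (6.59 CPM in CGG-Cit and 10.2 CPM in CGG) and Ifit3 (2.80 CPM in CGG-Cit and 5.11 CPM in CGG) were lower in CGG-Cit, and the intervals of Irf1, Mx1 and Gbp7 spanned 1. The neutrophil markers S100a8 and S100a9 summed to 50230 CPM in these cells of CGG-Cit and 33000 CPM in those of CGG. Neutrophil RNA in that amount would carry 157 CPM of the 28 genes in CGG-Cit and 49.2 CPM in CGG, and 30.97 CPM of Isg15 in CGG-Cit and 7.83 CPM in CGG. The part of neutrophil RNA in these sums was not tested. The direction turned when cells that disagreed with their cluster were kept, with a 31-gene ratio of 0.447 in place of 1.41, so it rests on the cell selection.

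Erythroid cells carried a narrow form of the program. Isg15, Isg20 and Rsad2 together held 83.6% of the 28-gene UMIs in CGG-Cit and 83.9% in CGG. Isg15 had 485 CPM in CGG-Cit and 354 CPM in CGG, Isg20 386 CPM in CGG-Cit and 356 CPM in CGG, and Rsad2 312 CPM in CGG-Cit and 309 CPM in CGG. Cmpk2, the neighbour of Rsad2, had 26.0 CPM in CGG-Cit and 25.7 CPM in CGG, and Ifit3 1.34 CPM in CGG-Cit and 6.14 CPM in CGG. These 3 genes thus stood far above the IFIT family in both libraries. Rsad2 was higher in Alas2-gated cells, which make heme, with 464 CPM in CGG-Cit and 415 CPM in CGG, than in Car1-gated younger cells, with 145 CPM in CGG-Cit and 142 CPM in CGG. Bst2 changed sides between these gates, with 9.43 CPM in CGG-Cit and 29.97 CPM in CGG in Alas2-gated cells, and 64.7 CPM in CGG-Cit and 31.3 CPM in CGG in Car1-gated cells.

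The 28-gene sum of erythroid cells was 1416 CPM in 1123 cells of CGG-Cit and 1215 CPM in 620 cells of CGG, a ratio of 1.17 (1.14 to 1.19). All genes measured in this type were shifted toward CGG-Cit, with a median log2 ratio of 0.55, while the members' median was 0.17. At least 2-fold higher were 2 of 30 members, against 26.1% of all genes, and 4 were at least 2-fold lower (3.93% of all genes). The higher ones were Oas1a with 4.77 CPM in CGG-Cit and 1.57 CPM in CGG, and Oasl2 with 13.9 CPM in CGG-Cit and 6.85 CPM in CGG, and Rtp4 came close with 10.9 CPM in CGG-Cit and 5.71 CPM in CGG. The lower ones were Ifit3, Iigp1, Mx1 and Gbp2, of which Iigp1 had 0.523 CPM in CGG-Cit (9 UMIs) and 3.57 CPM in CGG (25 UMIs), Mx1 0.349 CPM in CGG-Cit (6 UMIs) and 2.14 CPM in CGG (15 UMIs), and Gbp2 0.814 CPM in CGG-Cit (14 UMIs) and 2.86 CPM in CGG (20 UMIs). Free stromal and macrophage RNA could carry 2.63 and 0.865 CPM of this CGG level of Iigp1. For Ifit3 it could carry 3.56 and 1.94 CPM of 6.14 CPM in CGG. Ifitm3 had 110.3 CPM in CGG-Cit and 128 CPM in CGG, and Ifi27l2a 50.8 CPM in CGG-Cit and 67.2 CPM in CGG. The shift of all genes was not the same along the lineage. In Alas2-gated erythroid cells the median log2 ratio was 0.12 for the members and -0.28 for all genes, and in Car1-gated ones 0.15 for the members and 0.38 for all genes. With scaling by the median of gene ratios the 31-gene ratio was 0.758 in place of 1.12. With cells that disagreed with their cluster kept it was 0.889.

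Dendritic cells were fewer. Conventional dendritic cells had a 28-gene sum of 3863 CPM in 42 cells of CGG-Cit and 3230 CPM in 164 cells of CGG, a ratio of 1.20, and the highest single CGG-Cit cell held 20.3% of its UMIs. Of 31 members, 1 was at least 2-fold higher (5.62% of all genes) and none was at least 2-fold lower (7.26%). Isg15 had 796 CPM in CGG-Cit and 514 CPM in CGG, while Rsad2 had 133 CPM in CGG-Cit and 258 CPM in CGG. Plasmacytoid dendritic cells, the classical source of type I interferon, had 875 CPM in 96 cells of CGG-Cit and 857 CPM in 49 cells of CGG. Their Bst2 level was 3028 CPM in CGG-Cit and 3646 CPM in CGG, and their Irf7 level 89.6 CPM in CGG-Cit and 124 CPM in CGG. Migratory dendritic cells had 1435 CPM in 14 cells of CGG-Cit and 3427 CPM in 51 cells of CGG, a ratio of 0.419. Dendritic subsets therefore did not share one direction.

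Cells of vessels and tissue were rare in CGG-Cit, and those present had high levels. Endothelial cells had 7161 CPM over 28 genes in 46 cells of CGG-Cit and 3662 CPM in 407 cells of CGG, a ratio of 1.96. In them 30 of 31 members were higher (48.1% of all genes), 17 at least 2-fold higher (3.23%), and none at least 2-fold lower (13.4%). Iigp1 had 881 CPM in CGG-Cit and 436 CPM in CGG, and Ifi44 529.6 CPM in CGG-Cit and 190.1 CPM in CGG. Mural cells, which wrap small vessels, had 9262 CPM in 12 cells of CGG-Cit and 3324 CPM in 207 cells of CGG, with 20 of 31 members at least 2-fold higher (5.96% of all genes) and none at least 2-fold lower (16.6%). Stromal cells had 7782 CPM in 28 cells of CGG-Cit and 5194 CPM in 1629 cells of CGG, with Isg15 at 1663 CPM in CGG-Cit and 1036 CPM in CGG. At least 2-fold higher were 5 of 31 members in stromal cells (8.13% of all genes), and none was at least 2-fold lower (9.05%). Macrophages had 6521 CPM in 17 cells of CGG-Cit and 4429 CPM in 909 cells of CGG, and 1 of the CGG-Cit cells held 24.7% of the UMIs. In macrophages 4 of 31 members were at least 2-fold higher (11.3% of all genes), and none was at least 2-fold lower (11.7%). The 28-gene sum of all 4 types was thus higher in CGG-Cit, on few cells. With each cell thinned to 2000 UMIs and shallower cells left out (1 in CGG-Cit and 366 in CGG), the share of stromal cells with at least 5 UMIs of the 28 genes was 63.0% in CGG-Cit and 65.7% in CGG, and unthinned 100% in CGG-Cit and 83.2% in CGG. Of macrophages, 8 of 16 in CGG-Cit and 496 of 858 in CGG passed this count after thinning (1 left out in CGG-Cit and 51 in CGG), and unthinned 100% in CGG-Cit and 88.0% in CGG. In stromal cells and macrophages the higher sum thus did not go with a higher share of cells after thinning. In the vessel cells it did. The thinned share of endothelial cells was 86.67% in CGG-Cit (39 of 45) and 61.65% in CGG (217 of 352). That of mural cells was 91.67% in CGG-Cit (11 of 12) and 48.08% in CGG (75 of 156). Left out were 1 endothelial cell in CGG-Cit and 55 in CGG, and 0 mural cells in CGG-Cit and 51 in CGG. The sum in mast cells and basophils was 509.9 CPM in 96 cells of CGG-Cit and 1022 CPM in 27 cells of CGG, where 1 cell held 68.6% of the UMIs. Megakaryocytes (20 cells in CGG-Cit and 16 in CGG), plasma cells (28 in CGG-Cit and 13 in CGG) and osteoclasts (0 in CGG-Cit and 20 in CGG) were too few to compare. Cells left without a type numbered 816 in CGG-Cit and 3910 in CGG, and all 31 members were lower in those of CGG-Cit, 27 of them at least 2-fold. Of 13667 genes measured in these cells, 45.1% were higher in CGG-Cit and 3400 were at least 2-fold lower. Whether the same kinds of cells were left without a type in both libraries was not tested.

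Read gene by gene over the 7 numerous types, members differed in how many types had an interval on one side of 1. Ifi47 had an interval above 1 in 7 of 7 types. Isg15 and Rtp4 had intervals above 1 in 5 types and below 1 in none, and Isg20 and Usp18 had them above 1 in 4 types and below 1 in none. Ifi44 was above 1 in none and below 1 in 3 types. Ifi27l2a was above 1 in 4 types and below 1 in 3, and Ifitm3 above 1 in 3 types and below 1 in 4, so the abundant members split by type. Irf1, like Ifi44, was above 1 in none and below 1 in 3 types. Iigp1, measured in 6 of these types, was at least 2-fold lower in 4 of them, namely neutrophils, monocytes, B lineage cells and erythroid cells. Free stromal and macrophage RNA could carry much of its CGG level there, as with 6.16 and 1.83 CPM of 7.07 CPM in B lineage cells. None of the intervals read here was corrected for free RNA, and its part was not tested. Differences between types were not tested.

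Genes of the same pathway outside the 31 were read from 4 further lists. Of 26 other interferon-induced genes measured in neutrophils, 18 were higher in CGG-Cit (44.0% of all genes) and 6 at least 2-fold higher, while 3 were at least 2-fold lower, against 2.12% and 7.68% of all genes. Slfn5, a member of the Schlafen family, had 22.6 CPM in CGG-Cit and 5.94 CPM in CGG, and Xaf1, which promotes apoptosis, 25.8 CPM in CGG-Cit and 8.71 CPM in CGG. Cxcl9, a chemokine induced by type II interferon, had 0.272 CPM in CGG-Cit and 3.96 CPM in CGG. Of 12 receptor and signalling genes in neutrophils, 5 were higher and 7 lower in CGG-Cit. The receptor chain Ifnar1 had 19.7 CPM in CGG-Cit and 30.4 CPM in CGG. Of 8 sensors and adaptors, 3 were higher and 5 lower, and none differed by 2-fold. The targets outside the 31 thus differed in neutrophils, while receptors and sensors were mixed. In T cells 21 of 25 other interferon-induced genes were higher in CGG-Cit (44.9% of all genes) and none reached 2-fold. In B lineage cells 12 of 26 were higher (41.7% of all genes) and 3 were at least 2-fold lower (8.37%). In monocytes 20 of 26 were higher (53.5% of all genes) and none reached 2-fold.

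The program was also uneven from cell to cell. Each cell was thinned to 2000 UMIs, shallower cells were left out, and the share of cells with at least 5 UMIs of the 28 genes was counted. In neutrophils it was 16.1% (14.6 to 17.7, exact Clopper-Pearson interval) in CGG-Cit, 371 of 2303 cells, and 3.66% (2.56 to 5.05) in CGG, 35 of 957 cells, with 177 CGG-Cit cells and 74 CGG cells left out. Without thinning it was 41.4% in CGG-Cit and 21.7% in CGG. In B lineage cells, where the members were low, the thinned share was 1.98% in CGG-Cit and 1.68% in CGG. In Retnlg-gated neutrophils the thinned share was 26.6% in CGG-Cit and 7.32% in CGG, and in Ltf-gated cells 8.53% in CGG-Cit and 0.538% in CGG. In Fcnb-gated cells it was 1.33% in CGG-Cit, and 0 of 132 cells in CGG, which allows a share of up to 2.27%. In NK cells it was 20.7% in CGG-Cit and 7.29% in CGG. In Cd4-gated T cells it was 64.2% in CGG-Cit and 49.2% in CGG, and in Cd8a-gated T cells 42.2% in CGG-Cit and 45.3% in CGG. Monocytes were close, with 19.7% in CGG-Cit and 18.6% in CGG.

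Cells past this count also carried other interferon genes that the count did not use. In neutrophils, 24 of 28 measured genes outside the 31 were at least 2-fold higher in the cells past the count than in the others in CGG-Cit (7.3% of all other genes), and 23 of 29 in CGG (25.1%). In monocytes these counts were 26 of 29 in CGG-Cit (5.83%) and 28 of 29 in CGG (7.51%). In T cells they were 25 of 28 in CGG-Cit (4.52%) and 22 of 28 in CGG (2.72%). Neutrophils past the count had fewer UMIs before thinning, with a median of 4313 in CGG-Cit against 6729 in the other CGG-Cit cells, and 2942 in CGG against 5876 in the other CGG cells. Of the neutrophils past the count, 289 of 371 in CGG-Cit and 33 of 35 in CGG lay in the Retnlg gate. The other neutrophils included many cells of the earlier gates, so this contrast also compares stages. The parts of depth and of stage in these counts were not tested.

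**Figure D5:**
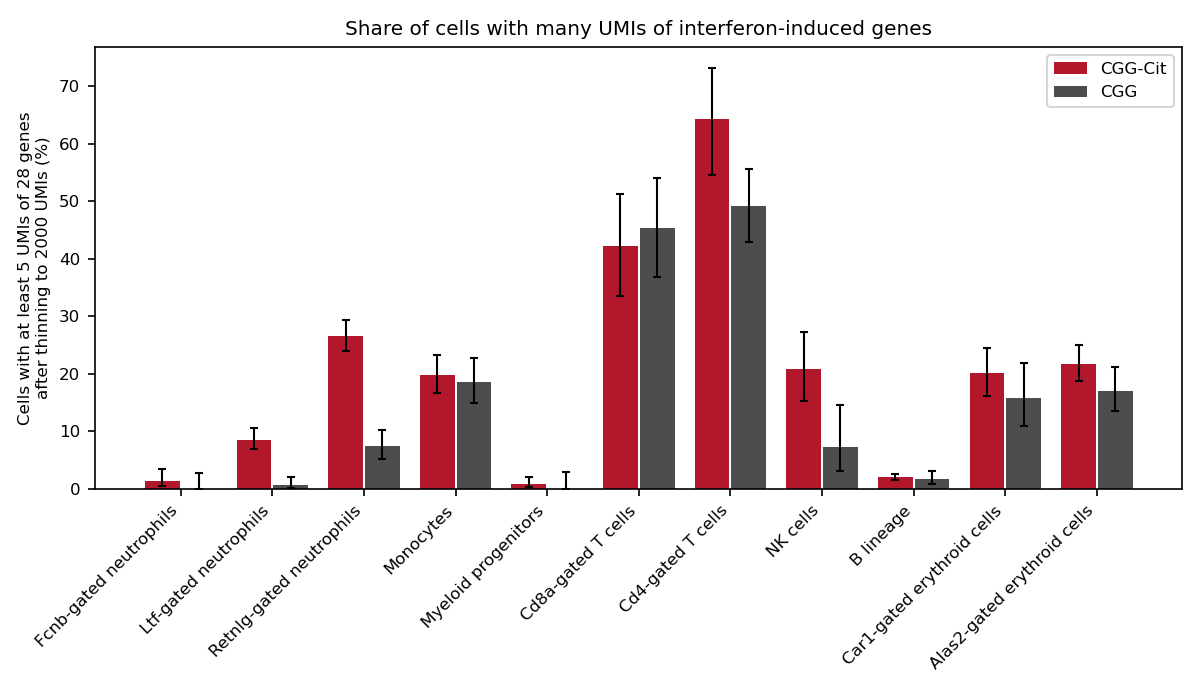
Share of cells with at least 5 UMIs of 28 members after thinning to 2000 UMIs, in 11 types and subsets, CGG-Cit left of CGG, with exact Clopper-Pearson intervals. Retnlg-gated neutrophils stand at 26.6% in CGG-Cit and 7.32% in CGG, and Cd4-gated T cells at 64.2% in CGG-Cit and 49.2% in CGG.

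Type I interferons themselves were nearly undetected. The 13 numbered Ifna genes had 0 UMIs in 9994 cells of CGG-Cit and in 11048 cells of CGG, which for each gene allows a share of cells with a UMI of up to 0.03% in CGG-Cit and 0.0272% in CGG. Ifnab had 0 UMIs in CGG-Cit and 1 UMI in CGG. Ifnb1 had 1 UMI in CGG-Cit and 148 UMIs in 13 cells of CGG, of which 133 lay in 2 cells with 88 and 45 UMIs. Both of these cells took no type, since their gates disagreed with a cluster of stromal markers, and they held 586 and 1008 UMIs of the 28 members. Ifng, the type II interferon, had 494 UMIs in CGG-Cit and 732 UMIs in CGG. Its level in NK cells was 142 CPM in CGG-Cit and 189 CPM in CGG, and in T cells 136 CPM in CGG-Cit and 168 CPM in CGG. In neutrophils it had 2 UMIs in each library. NK and T cells thus carried Ifng in both libraries, at lower levels in CGG-Cit. The intervals overlapped at their ends in NK cells (122 to 164 CPM in CGG-Cit and 154 to 229.9 CPM in CGG). They also did in T cells (119 to 155 CPM in CGG-Cit and 153 to 184 CPM in CGG). Such an overlap does not show equal levels, and no ratio interval is given for Ifng. In the Cd4 gate the intervals did not meet (100 to 162 CPM in CGG-Cit and 165 to 214 CPM in CGG). In the Cd8a gate they overlapped at their ends, and in the Cd163l1 gate Ifng was higher in CGG-Cit, with overlapping intervals.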

How the data were processed

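Single-cell libraries of calvarial defects were captured at the 3′ end and sequenced, and the authors deposited filtered gene-by-cell matrices of UMI counts, not normalized. The matrices were written by Cell Ranger 4.0.0 per the file headers, and by Cell Ranger 3.0 with the mm10 genome per the submitters' processing notes. The difference is not resolved in the sources used here. The kit was version 2 or 3 per the labels' protocols. Total counts were 106173570 UMIs in CGG-Cit (median 6212.5 per barcode) and 92517884 UMIs in CGG (median 3819).

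From these counts, cells with fewer than 200 genes or more than 20% mitochondrial UMIs were removed. Scrublet, as implemented in scanpy 1.11.5, called 537 doublets in CGG-Cit. In CGG it called 1 of 12279 cells (0.00814%), so there the highest-scoring 0.8% per 1000 barcodes, 1231 cells, were removed instead. Types were gated per cell from 21 marker lists, without the 32 genes, and a cell was kept where its gate agreed in lineage with its Leiden cluster. This agreement rule was added after a gate of mixed cells had been seen, and it removed 13 cells of CGG-Cit and 1270 of CGG. Subsets, each named by a single gene, were gated within a type by the highest mean score over marker lists. UMIs were summed by type and library and divided by all UMIs. A gene counted as measured at 20 UMIs over both libraries, and 0.5 UMI was added for log2 ratios. For shares of cells, each cell was thinned without replacement to 2000 UMIs. A limit for 0 cells is 3 divided by the number of cells. The level carried by free RNA was the type's summed Col1a1, Col1a2, Col3a1 and Dcn times the ratio of member to marker in the stromal cells of the same library, and likewise for macrophage markers. The ratio intervals and 2-fold calls were checked on simulated Poisson counts of neutrophils, and thinning by its mean. Spread between cells, gating, doublet removal and the free RNA level were not simulated. Python 3.11.15, numpy 2.4.6 and scipy 1.17.1 were used.

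Members named with values in each of the 7 types were those with the 4 highest and 4 lowest ratios, by the interval bound nearest to 1, and the 5 highest levels. The members and lists were chosen with earlier results of these data known. Alternatives were the sum without 3 abundant genes, thinning, median-of-ratios scaling, doublets kept, at least 500 genes, a wider gate margin, clusters, a 1.5-fold limit, 5 UMIs added, and, chosen after seeing the data, the gate alone and leaving out the highest cell. The values of 1 gene are not reported here.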

Additional observations from a re-analysis of the deposited data

Results flagged for a closer look

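The summed level of 28 members had a ratio (CGG-Cit over CGG) of 2.16 in neutrophils and 0.706 in B lineage cells, with intervals on opposite sides of 1. This difference between cell types was not tested, since each hydrogel had 1 library.

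Ifi27l2a had a ratio of 2.77 in neutrophils and 0.424 in NK cells. Ifitm3 had a ratio of 1.59 in neutrophils and 0.392 in B lineage cells. Both genes thus stood on opposite sides of 1 in different cell types, and the difference was not tested. Free stromal and macrophage RNA could carry 56.6 and 33.7 CPM of the 146 CPM of Ifitm3 in CGG B lineage cells. Those of CGG-Cit had 57.2 CPM. For Ifi27l2a in CGG NK cells the carried amounts were 61.3 and 29.9 CPM of 418 CPM. The part of free RNA was not tested.

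Ifnb1, which entered no comparison between types, had 88 UMIs in 1 cell of CGG and 45 UMIs in another, both cells without a type. In CGG-Cit, 1 UMI of Ifnb1 was found in 9994 cells.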

How the results depend on the processing

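No paired analysis was possible because each hydrogel had 1 library. Of 63 ratios of the 31-gene sum under alternatives, 28 moved by less than their counting interval, 30 moved beyond it and 5 changed direction. Among the 30 were 2 ratios of NK cells below 1 (0.904 with predicted doublets kept and 0.516 with the marker gate alone), not counted as changed because the interval of the reported ratio spanned 1. Of 77 ratios of named members, 62 were never counted as reversed under an alternative. Only a ratio whose reported interval excluded 1 could be counted, so ratios with an interval that spanned 1 are among the 62.

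Ratios of the 31-gene sum were as follows. In neutrophils (1.98) the ratio was 2.16 without Ifitm3, Ifi27l2a and Bst2, 2.07 thinned, 2.04 with median-of-ratios scaling, 1.89 with doublets kept, 2.04 with the wider margin, 1.81 by cluster and 1.90 with the gate alone. In monocytes (1.18) it was 0.991 without the 3 genes, 1.24 thinned, 1.15 with median-of-ratios scaling, 1.14 with doublets, 1.28 with the wider margin and 1.54 by cluster. In myeloid progenitors (1.41) it was 1.19 thinned, 1.49 with median-of-ratios scaling, 1.07 with doublets, 1.49 with the wider margin and 0.447 with the gate alone. In T cells (1.07) it was 1.35 without the 3 genes, 1.16 thinned, 1.11 with median-of-ratios scaling and 1.004 by cluster. In NK cells (1.06) it was 1.48 without the 3 genes, 1.25 thinned, 0.904 with doublets and 0.516 with the gate alone. In B lineage cells (1.36) it was 0.706 without the 3 genes, 1.44 with median-of-ratios scaling and 1.29 by cluster. In erythroid cells (1.12) it was 1.17 without the 3 genes, 1.16 thinned, 0.758 with median-of-ratios scaling, 1.01 with doublets, 1.06 with at least 500 genes and 0.889 with the gate alone.

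Counts at a 1.5-fold limit were 3 members lower in monocytes, 10 higher and 4 lower in myeloid progenitors, 8 higher in T cells, 13 higher and 3 lower in NK cells, and 5 higher in erythroid cells. By cluster, monocytes had 17 members at least 2-fold higher, 0 lower and a median log2 ratio of 1.11, myeloid progenitors 2 lower, T cells 0 higher and NK cells 2 lower. With doublets kept, myeloid progenitors had 1 higher and 5 lower (median 0.071), NK cells 2 higher and 0 lower, and erythroid cells 0 higher and 8 lower (median -0.29). With the gate alone, myeloid progenitors had 0 higher and 19 lower (median -1.66), NK cells 1 higher and 11 lower (median -0.41), and erythroid cells 0 higher and 11 lower (median -0.41). Erythroid cells had 0 higher (median -0.39) with median-of-ratios scaling and 1 higher with at least 500 genes, and myeloid progenitors 1 lower without the highest cell. The share of all genes past the same limit was not computed under these alternatives, so whether the counts exceed it cannot be read from them.

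Single genes whose reported interval excluded 1 changed direction as follows. In monocytes Irf7 had a ratio of 1.10 with the wider margin, and by cluster Rsad2 had 2.81, Stat2 1.36 and Irf7 1.98. In myeloid progenitors Ifi27l2a had 0.923 with doublets, and with the gate alone Isg15 had 0.273, Isg20 0.866, Ifi27l2a 0.262, Ifitm3 0.626, Bst2 0.698 and Ifi47 0.983. In NK cells with the gate alone Ifit3 had 0.368, Ifit1 0.284 and Isg15 0.730. In erythroid cells Isg15 had 0.929 and Isg20 0.735 with median-of-ratios scaling, and Rtp4 0.972 with the gate alone.

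Shares of cells past the count without thinning were, in CGG-Cit and CGG, 41.4% and 21.7% in neutrophils, 72.5% and 59.0% in monocytes, 67.3% and 56.6% in myeloid progenitors, 74.5% and 70.2% in T cells, 45.6% and 34.0% in NK cells, 8.30% and 9.01% in B lineage cells, and 87.5% and 71.3% in erythroid cells. With 1 more UMI required they were 12.9% and 2.19% in neutrophils, 43.9% and 35.6% in T cells, 16.7% and 11.2% in erythroid cells, 15.3% in monocytes of CGG-Cit and 1.22% in B lineage cells of CGG-Cit. The order of cell types kept 6 ranks in CGG-Cit and 5 in CGG without the 3 genes, and 10 and 8 when thinned. The causes were not tested. Genes under about 20 UMIs and types under 100 cells are limited by counting error.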
